A study of Mus musculus with 8 samples.

Results

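The interferon-inducible GTPases described here are Gbp2, Gbp3, Gbp6, Gbp7, Igtp, Irgm1, Irgm2 and Iigp1, 8 mouse genes taken by symbol. Rows for 7 of them were among the 14162 genes of the deposited table, and these 7 also passed the filter on low values that left 13150 genes for testing. Gbp6 was not analysed here. Their RNA was sequenced in mouse hepatic stellate cells, which store vitamin A in the healthy liver and become contractile and matrix-producing once activated. The 8 libraries form 4 groups of 2: activated cells with miR-15a, activated cells with a control microRNA, activated cells, and quiescent cells. The stated purpose of the series was to find genes that miR-15a may target. The labels give no culture time, no dose and no sequence for the control microRNA. They name C57BL/6J and SCID mice without tying a library to a strain, and SCID mice lack mature T and B lymphocytes. Whether libraries a and b of a group stem from different animals or cultures is not stated either, so the p-values describe how far these libraries lie apart, and that spread may be technical.

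These GTPases are enzymes of cell-autonomous immunity. Interferon gamma binds its receptor, the kinases Jak1 and Jak2 pass the signal on, and transcription factors that include Irf1 switch on the guanylate-binding proteins (Gbp genes) and the immunity-related GTPases (Igtp, Irgm1, Irgm2 and Iigp1). Both families act on the vacuoles of intracellular microbes, and guanylate-binding proteins also feed inflammasome activation. Macrophages, endothelial cells and many other cells of the liver can express them after interferon.

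On the GRCm38 assembly with GENCODE M21 annotation, Gbp7 (chr3:142530342-142550149), Gbp3 (chr3:142560026-142573209) and Gbp2 (chr3:142620602-142638008) lie in this order on the plus strand of chromosome 3. On chromosome 11, Irgm1 (chr11:48861968-48871683) lies on the minus strand, and Igtp (chr11:58199556-58207591) and Irgm2 (chr11:58199618-58222782) lie on the plus strand. The annotated exons of Igtp and Irgm2 share 162 bases, so reads there cannot be given to either gene with certainty. Related Gbp genes also share stretches of sequence, and how reads matching several of them were counted is not given in the sources used here.

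The promoters of these genes are shown because the members moved in the same direction in the comparisons below. RefSeq promoter windows (GRCm38.p6, 250 bases before to 50 bases after the start) were used for 6 of the 7 measured genes. The promoter of Iigp1 was not searched. Each line gives the 100 bases before the start, 5′ to 3′ on the strand of the gene, with capitals on the core of the interferon-stimulated response element, GAAANNGAAA or its other strand TTTCNNTTTC. The Gbp stretches are Gbp7 chr3:142530236-142530335, Gbp3 chr3:142559944-142560043 and Gbp2 chr3:142620563-142620662, all on the plus strand. The immunity-related GTPase stretches are Irgm1 chr11:48871421-48871520 on the minus strand, and Igtp chr11:58199456-58199555 and Irgm2 chr11:58214877-58214976 on the plus strand.
Gbp7: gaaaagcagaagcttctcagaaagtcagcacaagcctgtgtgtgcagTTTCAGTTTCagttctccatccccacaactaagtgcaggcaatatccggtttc
Gbp3: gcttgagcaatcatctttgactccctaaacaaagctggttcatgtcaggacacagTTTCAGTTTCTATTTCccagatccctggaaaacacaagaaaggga
Gbp2: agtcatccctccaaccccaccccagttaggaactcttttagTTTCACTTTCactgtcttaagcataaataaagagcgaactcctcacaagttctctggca
Irgm1: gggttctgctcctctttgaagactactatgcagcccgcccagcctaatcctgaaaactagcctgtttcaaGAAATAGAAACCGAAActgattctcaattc
Igtp: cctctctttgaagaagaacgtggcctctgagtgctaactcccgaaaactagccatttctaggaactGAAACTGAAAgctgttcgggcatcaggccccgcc
Irgm2: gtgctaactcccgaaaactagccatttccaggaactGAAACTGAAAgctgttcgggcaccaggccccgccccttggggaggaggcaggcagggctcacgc

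The response element core was found in the promoter of 6 of 6 genes, against 3.99% of 27025 genes with a window searched the same way on both strands. Its first base lay 53 bases before the start in Gbp7, 59 in Gbp2, 34 in Igtp and 64 in Irgm2. Overlapping pairs of matches began 45 and 39 bases before the start in Gbp3 and 30 and 24 bases before it in Irgm1. Gbp3 has a second annotated window, which held no match. The promoters of Igtp and Irgm2 shared an identical run of 61 bases, although the 2 genes have different starts and their windows do not overlap. RefSeq starts can differ from the GENCODE coordinates given above. The Irgm2 window (chr11:58214727-58215026) lies inside the GENCODE span of that gene. The letters TTCNNNGAA of the gamma-activated site were found in the windows of Gbp7, Igtp and Irgm2, against 9.55% of genes. A match describes letters and not binding.

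The microRNA itself was compared with the same genes. RefSeq gives the mature miR-15a as follows, 5′ to 3′, with bases 2 to 8, the seed, in capitals.
mmu-miR-15a-5p: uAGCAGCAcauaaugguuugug
Its complement, TGCTGCT, was found in the longest annotated 3′ UTR of 1 of the 7 GTPases, Irgm2, at base 1754 of 2110. That site reads as follows, with the match in capitals.
Irgm2 site: tatggcatagaTGCTGCTccgcaatgtca
Of 11872 tested genes with an annotated 3′ UTR, 24.4% held the same letters. The 3′ UTRs without a match were 515 bases long in Gbp2, 517 in Gbp3, 3575 in Gbp7, 1210 in Igtp, 556 in Irgm1 and 1581 in Iigp1, where the median over tested genes was 1200.0. Irgm2, with the site, was among the members that were higher with miR-15a.

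The deposited values are whole-number scores that share 910 distinct values across the 8 libraries, with totals 0.409% apart, so the depth of each library is unknown. Scores of the 7 GTPases ran from 10 to 10507, below the shared maximum of 125636. The labelled states were checked against their markers. Of 9 measured markers of activated stellate cells 9 were called higher in activated than in quiescent cells (limma, as described below). Of 9 markers of quiescent stellate cells 7 were called lower and 2 higher. Over all 13150 tested genes, 5968 were called higher and 4483 lower. Colec11 and Vipr1 passed the filter through quiescent libraries alone, and Cnn1 and Timp1 only through activated groups, so their calls only describe the groups. Macrophage and endothelial transcripts were high in quiescent libraries and lower in the activated groups, as given beside the results. The Y-linked gene Ddx3y scored 1046 and 1006 in miR-15a libraries, 1282 and 1268 in control microRNA libraries, 2606 and 2570 in activated cells and 44 and 40 in quiescent cells. Xist, expressed from the inactive X chromosome, scored 3373 in both miR-15a libraries, 3373 and 5027 in control microRNA libraries, 169 and 21 in activated cells and 8724 in both quiescent libraries. The labels do not give the sex of the animals, and the part of these differences in the results was not tested.

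Against the control microRNA, the 7 GTPases were higher with miR-15a, by 1.29 to 3.11 on the log2(score + 5) scale, the scale of all fold changes here. Each passed the test (limma with Benjamini-Hochberg adjustment over 13150 genes, adjusted p under 0.05). Over all tested genes, 14.4% were called higher in this comparison. The median change of the members was 2.20, against -0.07 over all genes. The 2 libraries of one group did not overlap the 2 of the other for any member, with the miR-15a pair higher, a pattern that 27.7% of tested genes shared.

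Gbp2, a guanylate-binding protein that coats vacuoles and bacteria and helps to release microbial ligands to inflammasomes, scored 538 and 652 with miR-15a, against 172 and 134 with the control microRNA. Activated cells without a named microRNA had 126 and 108, and quiescent cells had 1486 and 1590. The scores of the 4 groups did not overlap, in the order quiescent, miR-15a, control microRNA, activated. Control microRNA libraries lay above activated libraries for 25.2% of tested genes. For Gbp2 that step was not called (limma adjusted p = 0.132). The mean with miR-15a was 595 ± 80.6, against 153 ± 26.9 with the control microRNA (SD, n = 2 each), a log2 fold change of 1.93 ± 0.15 (SE; limma adjusted p = 0.000103).

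Gbp3, a close relative of Gbp2 within the same cluster, showed the largest rise of the 7. Its scores were 594 and 694 with miR-15a, against 70 and 70 with the control microRNA. They were 41 and 24 in activated cells, against 1744 and 1730 in quiescent cells. The miR-15a libraries stood far above the other activated libraries and well below the quiescent ones. The log2 fold change against the control microRNA was 3.11 ± 0.20 (SE; limma adjusted p = 4.52e-05).

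Gbp7, a guanylate-binding protein that has been tied to assembly of the phagocyte NADPH oxidase, scored 447 and 506 with miR-15a, against 82 and 88 with the control microRNA. It scored 66 and 46 in activated cells, against 1155 and 1124 in quiescent cells. The order of groups was that of Gbp2 and Gbp3. The change was 2.42 ± 0.16 (log2, SE; limma adjusted p = 4.79e-05).

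Irgm1, Irgm2 and Igtp (also called Irgm3) are regulatory immunity-related GTPases, which sit on host membranes and keep effector GTPases from acting there. Irgm1 scored 2002 and 1976 with miR-15a, against 800 and 824 with the control microRNA. It scored 613 and 485 in activated cells, against 3446 and 3204 in quiescent cells. Irgm1 had the highest score of the 7 in every activated library, and the smallest change of the 7 with miR-15a and on activation. With miR-15a it was higher than with the control microRNA by 1.29 ± 0.10 (log2, SE; limma adjusted p = 0.000143).

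Igtp scored 159 and 176 with miR-15a, against 30 and 35 with the control microRNA, and 17 and 10 in activated cells, against 1208 and 1282 in quiescent cells. Irgm2 scored 211 and 228 with miR-15a, against 80 and 64 with the control microRNA, and 34 and 26 in activated cells, against 1282 and 1130 in quiescent cells. For both, the scores of the 4 groups did not overlap. Control microRNA scores above activated scores were found for 25.2% of tested genes. By score, not divided by gene length, Igtp stood at the 15.4 percentile of all genes in activated cells. Irgm2 stood at the 23.9 percentile, near Gbp3 at 24.5. The change with miR-15a was 2.20 ± 0.19 for Igtp (adjusted p = 0.000199) and 1.55 ± 0.16 for Irgm2 (adjusted p = 0.000458; log2, SE, limma).

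Iigp1 (also called Irga6) is an effector GTPase that loads onto the vacuole of Toxoplasma gondii and helps to break it. It scored 966 and 1130 with miR-15a, against 132 and 166 with the control microRNA. It scored 130 and 87 in activated cells, against 9824 and 10507 in quiescent cells. The control microRNA and activated libraries lay close together, while the quiescent libraries held the highest scores of any member. The change with miR-15a was 2.78 ± 0.19 (log2, SE; limma adjusted p = 5.78e-05).

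**Figure D1:**
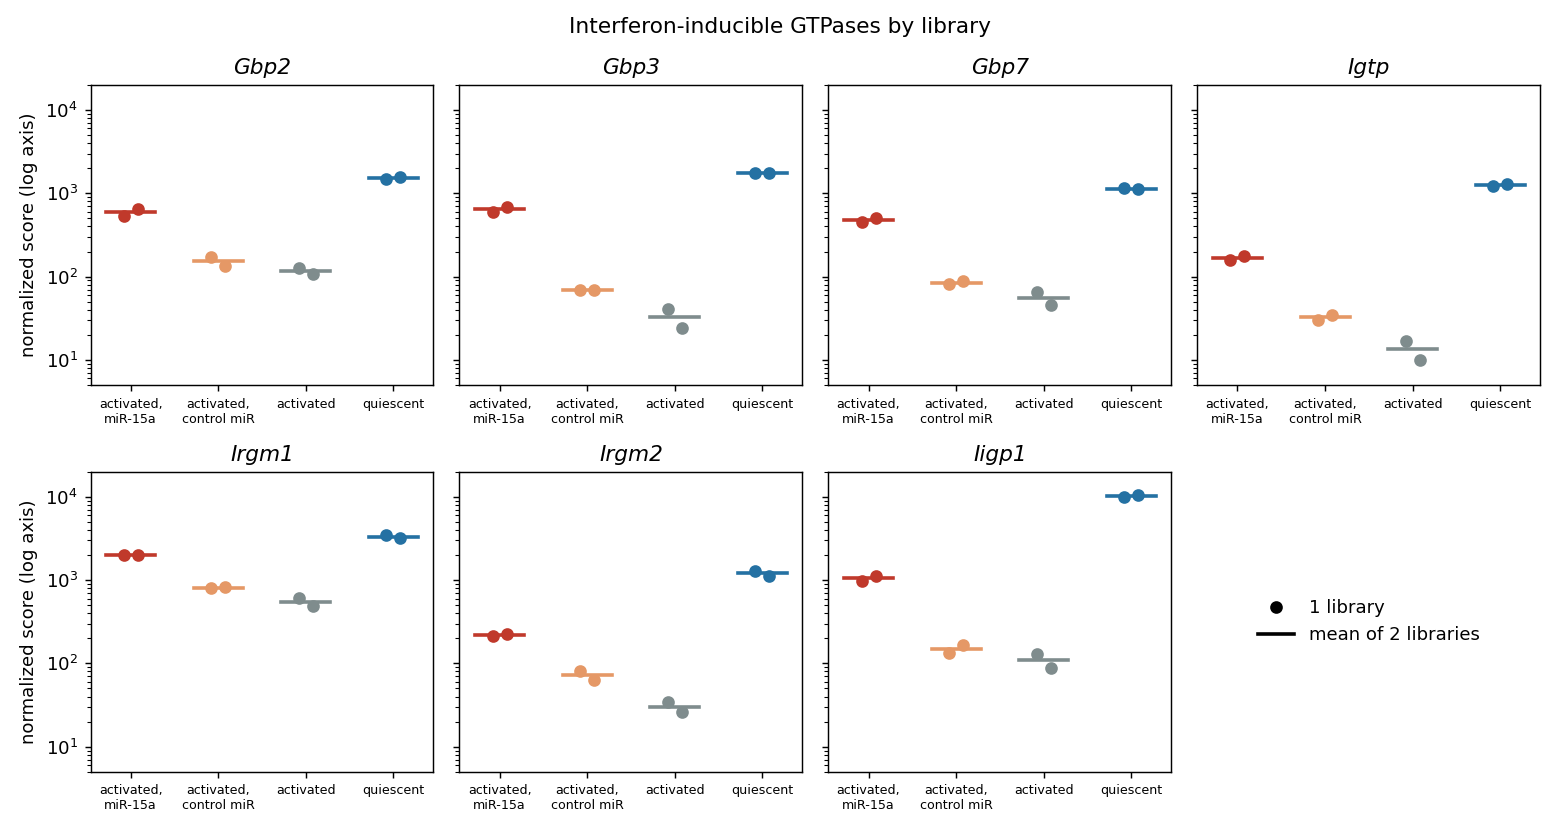
Normalized score of each of the 7 GTPases (log axis) in the 8 libraries, with 1 point per library and a line at the mean of the 2 libraries of a group. For every gene the miR-15a points lie above the control microRNA and activated points and below the quiescent points, with Iigp1 reaching 10507 in a quiescent library.

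Against activated cells without a named microRNA, the miR-15a libraries were higher for 7 of 7 GTPases, where 16.8% of tested genes were called higher. Changes ran from 1.86 ± 0.10 for Irgm1 (adjusted p = 1.76e-05) to 4.15 ± 0.20 for Gbp3 (adjusted p = 8.88e-06; log2, SE, limma). The change was 3.0 ± 0.16 for Gbp7, 3.24 ± 0.19 for Iigp1 and 3.25 ± 0.19 for Igtp. The median was 3.0, against -0.10 over all genes. This comparison uses the same miR-15a libraries as the one with the control microRNA, so the counts are not independent.

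Control microRNA libraries also differed from activated libraries. Xist and Ddx3y differed between these 2 groups too, as given above, and the part of that difference here was not tested. Scores in both control microRNA libraries were above both activated libraries for all 7 members, which held for 25.2% of tested genes. By limma, 4 of 7 members were called higher, where 7.18% of tested genes were, a share that ran from 2.81% to 7.68% with a library left out. Irgm2 was higher by 1.14 ± 0.16 (adjusted p = 0.00576), Igtp by 1.04 ± 0.19 (adjusted p = 0.0155), Gbp3 by 1.04 ± 0.20 (adjusted p = 0.0185) and Irgm1 by 0.57 ± 0.10 (adjusted p = 0.0158). For the other 3, Gbp7 differed by 0.58 (95% interval 0.21 to 0.95, adjusted p = 0.0501), Gbp2 by 0.37 (0.02 to 0.71, adjusted p = 0.132) and Iigp1 by 0.46 (0.02 to 0.90, adjusted p = 0.139). The 4 calls rest on the pooled spread: fitted on these 2 groups alone, limma called 0 of 7, with 5 at an unadjusted p under 0.05. Activated library b scored below activated library a for each of the 7 genes.

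Activation of the cells was accompanied by lower levels of every measured member. In activated against quiescent cells, 7 of 7 GTPases were called lower, where 34.1% of tested genes were. The changes were -6.51 ± 0.19 for Iigp1, -6.10 ± 0.19 for Igtp and -5.58 ± 0.20 for Gbp3 (log2, SE; limma adjusted p = 5.02e-08, 7.39e-08 and 1.45e-07). The changes of the remaining members were -5.12 ± 0.16 for Irgm2, -4.25 ± 0.16 for Gbp7, -3.66 ± 0.15 for Gbp2 and -2.60 ± 0.10 for Irgm1. The median of the members was -5.12, against 0.21 over all genes. In these bulk libraries, fewer cells of a type and less RNA per cell cannot be told apart.

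**Figure D2:**
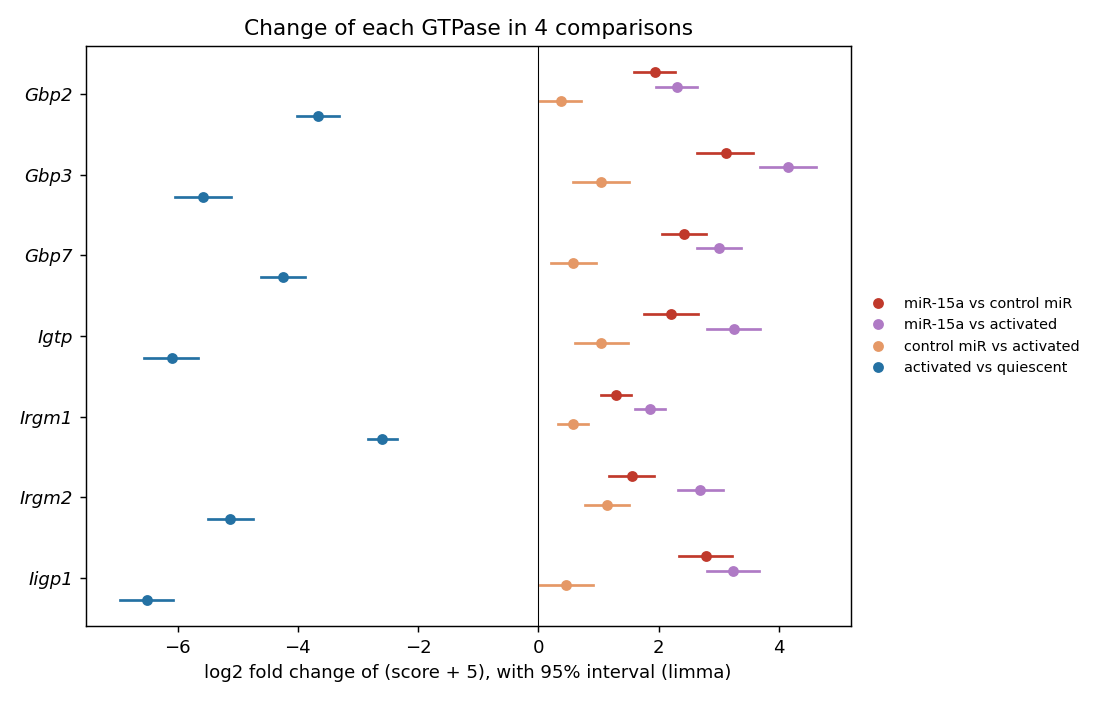
Log2 fold change of (score + 5) of each GTPase in 4 comparisons, with the 95% interval from limma. The intervals of miR-15a against control microRNA lie to the right of 0 for all 7 genes, and those of activated against quiescent cells lie to the left, from -2.60 for Irgm1 to -6.51 for Iigp1. Comparisons share libraries and are not independent.

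With miR-15a the GTPases did not reach the quiescent level. In miR-15a against quiescent libraries 7 of 7 were called lower, where 34.4% of tested genes were, with a median of -1.43 for the members and 0.04 for all genes. Irgm1 was nearest to the quiescent level, with a change of -0.74 ± 0.10 (log2, SE; limma adjusted p = 0.000398), and Iigp1 was farthest, at -3.28 (adjusted p = 2.64e-06). The 3 Gbp genes lay between, at -1.25 for Gbp7, -1.37 for Gbp2 and -1.43 for Gbp3. In control microRNA against quiescent libraries, 7 of 7 were also called lower, where 33.0% of tested genes were, from -2.03 for Irgm1 to -6.05 for Iigp1.

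Expressed as a share of the quiescent mean, the miR-15a level was 59.8% for Irgm1, 41.8% for Gbp7, 38.7% for Gbp2, 37.1% for Gbp3, 18.2% for Irgm2, 13.5% for Igtp and 10.3% for Iigp1. With the control microRNA the shares were 24.4% for Irgm1, 9.95% for Gbp2, 7.46% for Gbp7, 5.97% for Irgm2, 4.03% for Gbp3, 2.61% for Igtp and 1.47% for Iigp1. In activated cells the range was 1.07% for Iigp1 to 16.5% for Irgm1. Irgm1 had the highest share in each activated group. Iigp1 had the lowest with either microRNA, while in activated cells Iigp1 and Igtp, at 1.07% and 1.08%, could not be ordered, and the 3 Gbp genes had shares within 5 percentage points of each other with miR-15a.

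For every member the means were ordered quiescent, miR-15a, control microRNA, activated, from high to low. The only neighbours in that order that did not differ by limma were control microRNA and activated cells, for Gbp2, Gbp7 and Iigp1.

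Levels can be compared between genes only per length, so mean scores were divided by the annotated exon length. Irgm1 led with miR-15a, at 342 per kb, ahead of Gbp2 at 236, Gbp3 at 197 and Iigp1 at 180, while Gbp7, Igtp and Irgm2 had 84.9, 82.8 and 59.5 per kb. In quiescent cells the order was different, with Iigp1 at 1750 per kb, ahead of Igtp at 616, Gbp2 at 611, Irgm1 at 572, Gbp3 at 532, Irgm2 at 327 and Gbp7 at 203. In activated cells Irgm1 had 94.5 per kb and Igtp, at 6.68 per kb, had the lowest mean. The libraries do not settle the place of Igtp. In quiescent cells it had 597 and 634 per kb, against 591 and 632 for Gbp2. In activated cells it had 8.41 and 4.95 per kb, against 9.21 and 7.05 for Irgm2. The lengths count all annotated exons, whichever transcript was made.

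Transcripts of macrophages and endothelial cells moved with the GTPases. Of 13 measured macrophage markers, 13 were called higher with miR-15a than with the control microRNA, with a median of 2.75. Of 13 endothelial markers 12 were, with a median of 4.16, where 14.4% of tested genes were called higher. Their summed scores were 13139 to 14479 for macrophage and 10137 to 10180 for endothelial markers with miR-15a, against 2314 to 2552 and 279 to 465 with the control microRNA. Activated cells had sums of 1764 to 1954 and 101 to 247, and quiescent cells 137547 to 159084 and 166386 to 235807. No measured marker of either list was at 0 in both libraries of a group. Clec4g and Erg scored 1 in both activated libraries, and scores that low, of unknown depth, cannot show that a transcript was present. Marco, a scavenger receptor of liver macrophages, scored 1124 and 1353 with miR-15a, against 1 and 4 with the control microRNA. The part of these cells in the levels of the GTPases was not tested.

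The share of the quiescent level was compared with that of those markers. With miR-15a the median share over the 7 members was 37.1%, against 11.3% over macrophage markers (2.34% for Csf1r to 42.8% for Fcgr1) and 10.6% over endothelial markers (0.392% for Stab2 to 40.6% for Erg). With the control microRNA the medians were 5.97% for the GTPases, 1.73% for macrophage markers and 0.356% for endothelial markers. In activated cells they were 2.49%, 1.28% and 0.178%. Other interferon gamma response genes had medians of 15.3%, 1.68% and 1.5% in the miR-15a, control microRNA and activated groups, near those of the macrophage markers. Fcgr1 belongs to both of these lists. The lists overlap in range, and the differences between them were not tested. T and NK cells, the main makers of interferon gamma, had 3 of 14 markers measured. They summed to 6 in each miR-15a library, against 3 to 6 with the control microRNA. The sums were 9 and 8 in activated cells and 106 and 15 in quiescent cells, where Klrd1 scored 83 and 2. Only 1 of these markers, Cd4, passed the filter.

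**Figure D3:**
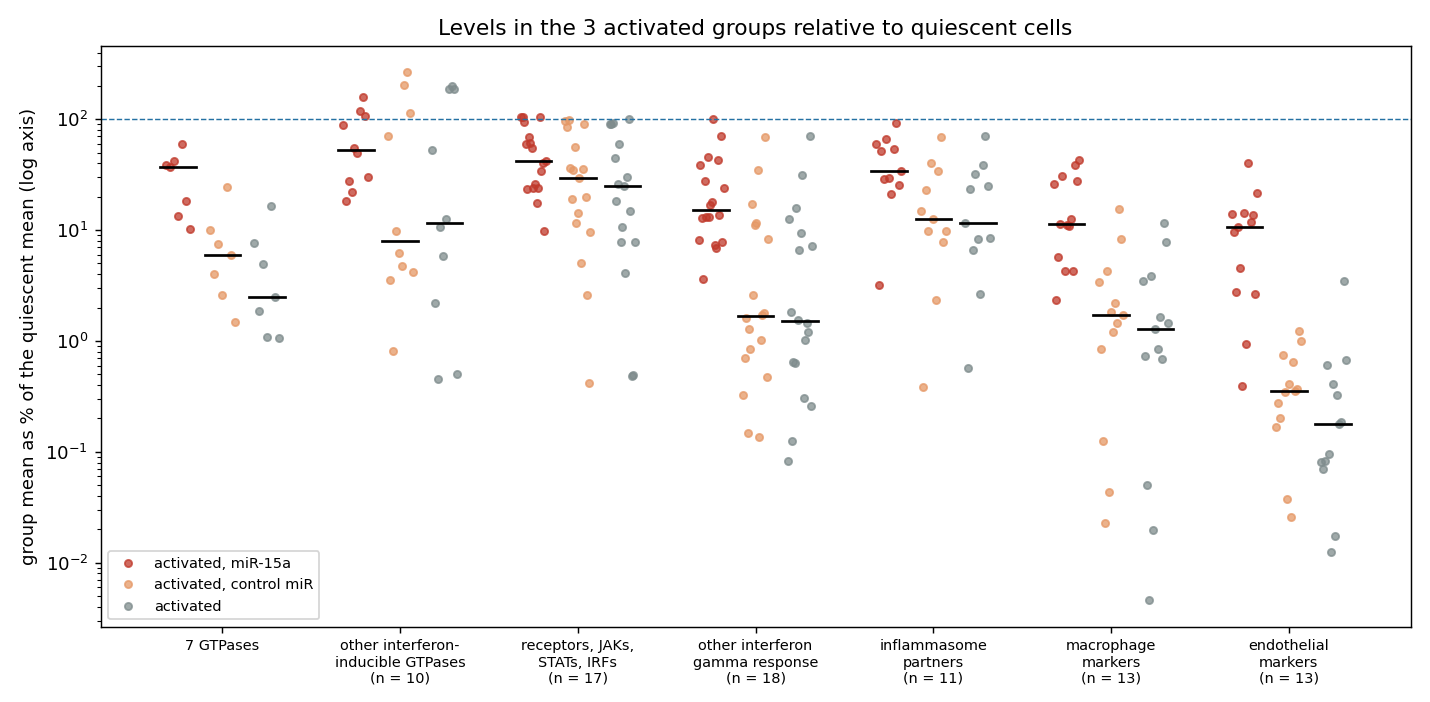
Group mean as a percentage of the quiescent mean (log axis) for each gene of 7 sets, in the miR-15a, control microRNA and activated groups; black lines are medians and the dashed line marks the quiescent level. The 7 GTPases have a median of 37.1% with miR-15a, against 11.3% for macrophage markers and 10.6% for endothelial markers.

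The interferon pathway around the GTPases was followed through lists of its ligands, receptors, inhibitors and targets. Of 10 interferon ligands only Ifnk, a type I interferon of skin, had a row. Ifnk scored 1 in each miR-15a and control microRNA library, and passed the filter only through quiescent cells, at 80 and 58. It was not called between the 2 microRNAs, where such low scores cannot show a change. Ifng itself was not analysed here. Of 17 receptors, kinases, STATs and IRFs, 10 were called higher with miR-15a than with the control microRNA and 0 lower, with a median of 0.74. Over all tested genes, 14.4% were called higher. Irf1, a factor that binds the response element shown above, scored 264 and 292 with miR-15a, against 93 and 68 with the control microRNA. It scored 78 and 54 in activated cells, against 1590 and 1602 in quiescent cells, the same order of group means as the members. Its change with miR-15a was 1.74 ± 0.19 (log2, SE; limma adjusted p = 0.00066).

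Most receptor chains differed little between these groups. Ifngr1, the ligand-binding chain of the interferon gamma receptor, scored 452 and 410 with miR-15a, against 398 and 397 with the control microRNA, a change of 0.11 ± 0.10 (limma adjusted p = 0.41). It scored 368 and 380 in activated cells, against 376 and 442 in quiescent cells, so its groups lay within a narrow range. Ifngr2 differed by 0.30 ± 0.06 (adjusted p = 0.011) and Jak2 by 0.98 ± 0.09 (adjusted p = 0.00024), while Jak1 differed by 0.29 ± 0.11 (adjusted p = 0.087). Of the receptor chains for type I interferon, Ifnar2 was higher by 0.74 ± 0.06 (adjusted p = 0.00021), and Ifnar1 differed by -0.06 ± 0.11 (adjusted p = 0.69). Of 10 inhibitors of the pathway, 3 were called higher and 0 lower with a median of 0.09, where 14.4% of tested genes were called higher. They included Usp18, which dampens type I interferon signalling, at 2.82 ± 0.20, while Socs1, which blocks the kinases, differed by 0.54 ± 0.26 (adjusted p = 0.15).

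Other targets of the pathway were mostly higher as well. Of 10 other interferon-inducible GTPases measured, 6 were called higher with miR-15a than with the control microRNA and 0 lower, with a median of 1.44. Over all tested genes, 14.4% were called higher in this comparison. The 10 include Gvin1, which lay below the filter in these 2 groups. Gbp9 scored 302 and 314 with miR-15a, against 5 and 13 with the control microRNA, and Ifi47 was higher by 1.15 ± 0.11 (log2, SE; limma adjusted p = 0.00027). Mx2, annotated as a polymorphic pseudogene, was higher by 2.58 ± 0.30 (adjusted p = 0.00093), and Tgtp2, which has a near-identical copy and is uncertain for that reason, by 2.79 ± 0.72 (adjusted p = 0.025). Of 18 other interferon gamma response genes tested, 17 were called higher and 0 lower, with a median of 2.60. They included the T-cell attractant Cxcl10 at 4.29 ± 0.38 (adjusted p = 0.00024).

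**Figure D4:**
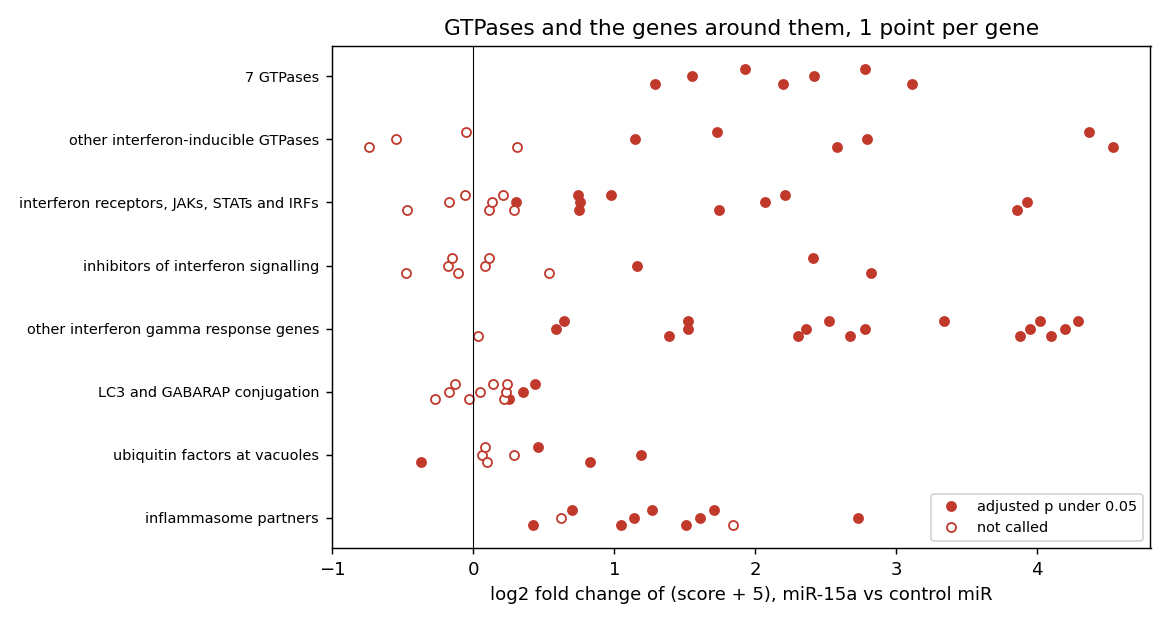
Log2 fold change of (score + 5) between miR-15a and control microRNA libraries, 1 point per gene, for the 7 GTPases and 7 lists of genes around them; filled points passed an adjusted p under 0.05 in limma. The GTPases lie between 1.29 and 3.11, and genes of LC3 and GABARAP conjugation lie near 0.

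Among partners that act with these GTPases at the vacuole, conjugation genes were mostly not called and inflammasome genes mostly were, against the 14.4% of all tested genes called higher. The LC3 and GABARAP conjugation machinery, which helps to direct both GTPase families to vacuoles, had 3 of 12 genes called higher and a median of 0.18. Gabarapl1 was higher by 0.44 ± 0.07 (adjusted p = 0.0032) and Gabarap by 0.35 ± 0.05 (adjusted p = 0.0028), while Atg5 differed by -0.17 ± 0.08 (adjusted p = 0.15; log2, SE, limma). Of 8 ubiquitin factors at vacuoles, 3 were called higher and 1 lower, with a median of 0.20. The ubiquitin-binding adaptor Sqstm1 was higher by 0.83 ± 0.06 (adjusted p = 6.2e-05). Of 11 inflammasome partners, 9 were called higher and 0 lower, with a median of 1.27. They included Casp4, the mouse caspase-11 that senses bacterial lipopolysaccharide, at 1.51 ± 0.10 (adjusted p = 5.8e-05), and Gsdmd, the pore protein that it cleaves, at 0.70 ± 0.14 (adjusted p = 0.0089). Macrophage markers rose in the same libraries, as given above, and their part in these lists was not tested.

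In activated against quiescent cells the lists lay mostly in the direction of the members. Of the 18 other interferon gamma response genes 18 were called lower, with a median of -5.38, and of the 17 receptors, kinases, STATs and IRFs 14 were, with a median of -2.01. Irf1 changed by -4.52, while Ifngr1 differed by -0.12 ± 0.10 (limma adjusted p = 0.27). Of the 10 other interferon-inducible GTPases 7 were lower and 2 higher, with a median of -3.08. The 10 include Gvin1, which passed the filter through the activated group alone, so its fit is no test in this comparison. Of the 12 conjugation genes 4 were higher and 3 lower, with a median of 0.04. Over all 13150 tested genes, 5968 were called higher and 4483 lower in this comparison.

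The genes whose pattern over the 8 libraries was most like the mean of the GTPases were Pf4, Cxcl10, Trim30a, H2-D1, Parp9, Esam, Sp100 and Scarf1. Likeness was Pearson's r of log2(score + 5) with the mean of the 7 centred members, 0.999 for Pf4 and 0.998 for Scarf1, the eighth in rank. It was over 0.99 for 108 of 13139 genes. Pf4, made by megakaryocytes and some macrophages, and Esam and Scarf1, found in endothelial cells, stood in this list beside the interferon-induced Cxcl10, Trim30a, Parp9 and Sp100.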

How the data were processed

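Per the labels' protocols, TruSeq libraries from total RNA were read single-end on a NextSeq. The submitters' processing notes name STAR, Subread, featureCounts and mm10, with no settings or versions. The deposited table holds whole-number values that the authors appear to have normalized, since all 8 libraries share 910 distinct values, so they were treated as a score of unknown depth and no counting interval is given. The planned test for such a score was used: limma (version 3.58.1, R 4.3.3) on log2(value + 5), with 4 group means over 8 libraries, 4 residual degrees of freedom, a variance trend and Benjamini-Hochberg adjustment, for genes with at least 10 in at least 2 libraries. Fold changes on this scale are smaller than the true change where values are low. The members and gene lists were chosen with earlier results of these data known. Genes named beside the members were fixed for each list, with up to 2 further genes of smallest p. Ddx3y, Xist and single markers were named after their values were seen. Alternatives covered the pseudocount, filters, scaling, the variance trend, the libraries fitted, a replicate block and a fold limit. Motifs and seed sites were matched by letters in RefSeq windows and GENCODE M21 3′ UTRs. A result of the pathway lists is not reported here.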

Additional observations from a re-analysis of the deposited data

How the results depend on the processing

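Each member was refitted under 16 settings: pseudocounts of 1 and 20, no filter and a filter at 50, median-ratio scaling, no variance trend, the compared groups alone, a replicate block, and each of the 8 libraries left out. In the 5 comparisons other than control microRNA against activated cells, direction and call were kept in 560 of 560 fits. A lone remaining library was assumed to vary like the other groups. In control microRNA against activated cells, 99 of 112 fits kept the call, 9 lost it, 4 gained it and 0 reversed. The members called higher there numbered 0 of 7 with the 2 groups alone (adjusted p 0.063 to 0.27, with 436 genes called in all), and 1 to 5 with a library left out. It was 1 without control microRNA library b, 3 without control microRNA library a or activated library b, and 5 without activated library a. Over all tested genes the share called higher in that comparison was 2.81% without activated library b, 3.26% without control microRNA library b and 3.65% without activated library a. With a library left out, that share was 9.83% to 13.7% for miR-15a against the control microRNA and 11.7% to 17.4% for miR-15a against activated cells. The replicate block gave 4 members for control microRNA against activated cells and 7 for miR-15a against the control microRNA. In either direction, 1490 and 3776 of 13150 genes were called in these comparisons. The differences between libraries a and b correlated between groups at -0.07 to 0.09. Such values cannot show whether libraries with the same letter share an animal or a culture. With a log2 fold limit of 1, the count was 3 for control microRNA against activated cells and 6 for miR-15a against quiescent cells, where Irgm1 dropped out. Under that limit 322 and 5214 of 13150 genes were called, in either direction.

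Median-ratio scaling moved the median of all genes by -0.27 in activated against quiescent cells, 0.14 in miR-15a against activated cells, -0.12 and -0.17 in miR-15a and control microRNA against quiescent cells, and by 0.07 or less elsewhere. The changes of the members are larger than these shifts. The split of higher and lower calls changed with that scaling to 2311 and 1585 for miR-15a against the control microRNA (1897 and 2029 otherwise), to 3113 and 1626 for miR-15a against activated cells (2204 and 2841), to 1370 and 493 for control microRNA against activated cells (944 and 869), to 4749 and 5418 for activated against quiescent cells (5968 and 4483), to 4375 and 5052 for miR-15a against quiescent cells (4883 and 4525), and to 4565 and 5030 for control microRNA against quiescent cells (5356 and 4340). With 2 libraries per group and unknown depth, small differences such as those of Gbp2 and Iigp1 between control microRNA and activated cells could not be settled.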

Other observations

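Gbp2b, which lies between Gbp3 and Gbp2 in the same cluster on chromosome 3, was named after its values were seen because it differed from its neighbours. It scored 124 and 110 with miR-15a, against 92 and 94 with the control microRNA, and 80 and 59 in activated cells, against 128 and 135 in quiescent cells. Its change with miR-15a against the control microRNA was 0.31 ± 0.16 (log2, SE; limma adjusted p = 0.18), and in activated against quiescent cells it was -0.89 ± 0.16 (adjusted p = 0.0013). The difference between Gbp2b and its neighbours was not tested.

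Gvin1, a very large interferon-inducible GTPase, was also named after its values were seen. It scored 8 and 8 in miR-15a libraries, 9 and 8 in control microRNA libraries, 14 and 14 in activated cells and 8 and 7 in quiescent cells. These scores lie near the filter of 10, which Gvin1 passed through the activated group alone, so no test of Gvin1 by itself is given. Its fit is counted in the list of other interferon-inducible GTPases above.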
